A study of Homo sapiens with 11 samples.

Results

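The 9 genes described here, IFIT1, IFIT2, IFIT3, ISG15, OAS1, OAS3, IFIH1, IFI6 and IFI44, are interferon-stimulated genes (ISGs), whose transcripts report whether a cell has sensed foreign RNA or received interferon. They were chosen by name, with earlier results of these data known, out of 23167 Ensembl identifiers in the count tables. Each matched a single identifier. RNA-seq was done on 4 libraries of MDA-MB-231, an established human triple-negative breast cancer cell line. The 2 mH2A1.1 KD libraries came from cells collected on day 3 after transfection with an siRNA against the macro-histone variant mH2A1.1, at 11 nM, with the reagent INTERFERin. The 2 WT libraries came from cells given that reagent with no siRNA, on the same day. Presence of an siRNA and loss of mH2A1.1 therefore differed together and cannot be told apart in these data. ChIP-seq of WT cells gave 1 peak list for mH2A1.1 and 1 for total mH2A1, which includes the splice isoform mH2A1.2. Library totals were 9794674 and 7856892 counts for WT and 5584962 and 2309549 for mH2A1.1 KD. The shallowest, KD replicate 2, had 30 counts on chromosome 21 and 0 on chromosomes 22 and X. No member lies there, but MX1, MX2, IFNAR1, IFNAR2 and IL10RB on chromosome 21 and APOL6 and USP18 on chromosome 22 do. Nothing in the labels ties the RNA-seq replicates to separate cultures or days, so p-values measure the spread between these libraries, which may be technical.

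Double-stranded RNA in the cytoplasm is detected by sensors such as RIG-I and MDA5 (the product of IFIH1), which signal through the adaptor MAVS to the kinase TBK1 and the factor IRF3. Secreted interferons then act through their receptors, the kinases JAK1 and TYK2 and the factors STAT2 and IRF9, which act at the interferon-stimulated response element (ISRE) in the promoters of ISGs. Short interfering RNAs can set off this response in some cells, and ISGs are a common check of it.

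The question was whether the libraries with siRNA held more ISG transcripts than those with reagent alone. With all 4 libraries, none of the 9 members was called higher in mH2A1.1 KD by either of the tools used. A call needed a change of more than 1.5-fold with an adjusted p below 0.1. By edgeR's quasi-likelihood test 0 of 9 members were called in either direction, where the same rule called 0% of the 11723 genes tested. By DESeq2, whose adjusted p was given for 7 of the 9, IFIT2 was the 1 member called, and it was lower in mH2A1.1 KD. DESeq2 called 5.72% of 9420 genes lower and 4.36% higher. At an unadjusted p under 0.05 edgeR also gave IFIT2 alone, among 7.05% of all genes lower and 5.64% higher. These counts depended on single libraries, over all genes as over the members. With KD replicate 1 left out, the edgeR log2 fold change was -0.67 for IFIT1, -1.02 for IFIT2, -0.79 for IFIH1 and 0.87 for ISG15. With KD replicate 2 left out, it was -0.16 for IFIT1, -0.66 for IFIT2, -0.40 for IFIH1 and -0.26 for ISG15.

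The sequences below are shown because they carry the element that the interferon signal acts on. They were taken from the RefSeq promoter table of build GRCh38.p14, which runs from 250 bases before to 50 after each start and has an entry for 8 of the 9 members, IFIT2 being the exception. The ISRE was searched as GAAANNGAAA on both strands, and its matches are in capitals. Only stretches upstream of the RefSeq start and outside GENCODE exons of that strand are printed, each 5′ to 3′ in the direction of transcription.
IFIT1 (chr10:89392492-89392544, plus strand): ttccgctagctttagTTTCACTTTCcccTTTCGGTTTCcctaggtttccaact
IFIT3 (chr10:89327826-89327899, plus strand): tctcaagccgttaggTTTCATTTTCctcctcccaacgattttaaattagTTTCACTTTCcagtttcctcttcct
ISG15 (chr1:1013369-1013414, plus strand): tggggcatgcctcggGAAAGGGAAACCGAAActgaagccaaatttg
IFI6 (chr1:27672261-27672363, minus strand): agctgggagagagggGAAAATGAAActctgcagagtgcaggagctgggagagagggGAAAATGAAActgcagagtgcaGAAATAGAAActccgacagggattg
IFIH1 (chr2:162318685-162318720, minus strand): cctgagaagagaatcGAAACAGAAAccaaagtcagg
IFI44 (chr1:78649756-78649788, plus strand): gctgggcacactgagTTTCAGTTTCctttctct

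A match was present in 7 of the 8 members with a window, against 4.38% of all 27305 genes with one. Among 37 other ISGs listed for comparison with a promoter entry 67.6% held a match. IFI6 carried 3 matches, which start 156, 115 and 93 bases before its RefSeq start and of which the first and the second have the same 10 letters. IFIT3 and IFI44 have 2 RefSeq starts each, and the IFI44 match shown lies before both. At the IFIT3 start not shown, chr10:89332529, further matches lie 94 to 85 and 51 to 42 bases upstream. That stretch overlaps an exon and is not printed. The 2 matches of ISG15 overlap, as do 2 of the 3 of IFIH1, and the IFIH1 match shown lies 21 to 12 bases before its start. OAS3 had 2 matches, 143 and 12 bases before its start. OAS1 had none with 2 bases between the GAAA cores, but GAAACGAAA, with a single base between them, lay 17 to 9 bases before its start. When 1 to 3 bases were allowed between the cores all 8 members matched, against 10.5% of all genes. The site of interferon-gamma signalling, GAS, searched as TTCNNNGAA (the same on both strands), was found in OAS1 alone among the 8, as TTCAGAGAA 168 to 160 bases before the start, and in 9.38% of all genes. A match of letters is not evidence that a factor binds there.

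The targeted gene, MACROH2A1, was measured at 367 and 375 CPM (TMM-normalised counts scaled to library size) in WT and at 260 and 285 in mH2A1.1 KD. Its counts do not separate mH2A1.1 from mH2A1.2. Both KD libraries lay below both WT libraries, with a log2 fold change of -0.44 ± 0.135 (SE) and an adjusted p of 0.359 by edgeR, and of -0.46 ± 0.113 with an adjusted p of 0.00312 by DESeq2, a fold too small for a call. The cell line's VIM, CD44, EGFR and KRT18 were at 328 CPM or more in every library. KRT18, at 328 and 362 CPM in WT and 490 and 768 in mH2A1.1 KD, was called higher by DESeq2 (log2 fold change 0.85, adjusted p = 0.049), and VIM, at 2209 and 2385 against 2830 and 4492, had a DESeq2 value of 0.66 and was not called. Of the genes listed beforehand as low or absent in this line, ESR1 and PGR had 0 counts in all. ERBB2 was detected, at 76.3 and 76.4 CPM in WT and 82.6 and 121 in mH2A1.1 KD. CDH1 was low, at 2.21 and 2.38 CPM in WT and 0.359 and 2.25 in mH2A1.1 KD. Of 8 markers of leukocytes, endothelium and fibroblasts 7 were in the tables, and MS4A1 and DCN had 0 counts in all libraries. Their summed level was 27.1 and 31.0 CPM in WT and 45.1 and 60.2 in mH2A1.1 KD, and 4.63 to 6.12 without COL1A2 in all 4 libraries. COL1A2 itself was called higher by DESeq2 (log2 fold change 0.95, adjusted p = 0.0299), and its part in the results below was not tested.

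IFIT1, IFIT2 and IFIT3 encode tetratricopeptide-repeat proteins that bind viral RNA or each other. They lie close together on chromosome 10 (hg38, GENCODE release 44, all on the plus strand), with IFIT1B between IFIT3 and IFIT1. IFIT2 is at chr10:89283694-89309271, IFIT3 at chr10:89327307-89377473 and IFIT1 at chr10:89392546-89406487. IFIT2 gave 974 and 722 counts in WT and 330 and 104 in mH2A1.1 KD, which are 97.8 and 90.4 CPM against 59.3 and 46.7. Both KD libraries were far below both WT libraries. The mean was 94.1 ± 5.21 CPM (SD, n = 2) in WT and 53.0 ± 8.87 (SD, n = 2) in mH2A1.1 KD. The log2 fold change was -0.83 ± 0.194 (SE, edgeR, 95% confidence interval -1.37 to -0.29, adjusted p = 0.359) and -0.82 ± 0.218 by DESeq2 (adjusted p = 0.0073). IFIT2 shares 12.1% of its exon bases with another annotated gene of the same strand, so part of its reads may have been left uncounted as ambiguous.

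With either WT library left out DESeq2 called 4 genes in the whole table, and IFIT2 was not among them (log2 fold change -0.78, adjusted p = 1.00 without WT replicate 1, and -0.89, adjusted p = 0.994 without WT replicate 2), with a fold change close to that of all 4 libraries. Its call held without KD replicate 1 (8.76e-05) or KD replicate 2 (0.00893). Without KD replicate 2, the library that lacks whole chromosomes, the edgeR log2 fold change of IFIT2 was -0.66 and edgeR called it too (adjusted p = 8.49e-06). In those fits the lone KD library is assumed to vary like the pair of WT libraries.

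IFIT1 gave 67.2 and 66.1 CPM in WT and 59.4 and 42.2 in mH2A1.1 KD. IFIT3 gave 158 and 157 CPM in WT and 144 and 131 in mH2A1.1 KD. Both had the KD libraries below the WT libraries. The edgeR log2 fold change was -0.39 ± 0.230 for IFIT1 (95% confidence interval -1.03 to 0.25, adjusted p = 0.399). For IFIT3 it was -0.20 ± 0.135 (95% confidence interval -0.57 to 0.18, adjusted p = 0.444).

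**Figure D1:**
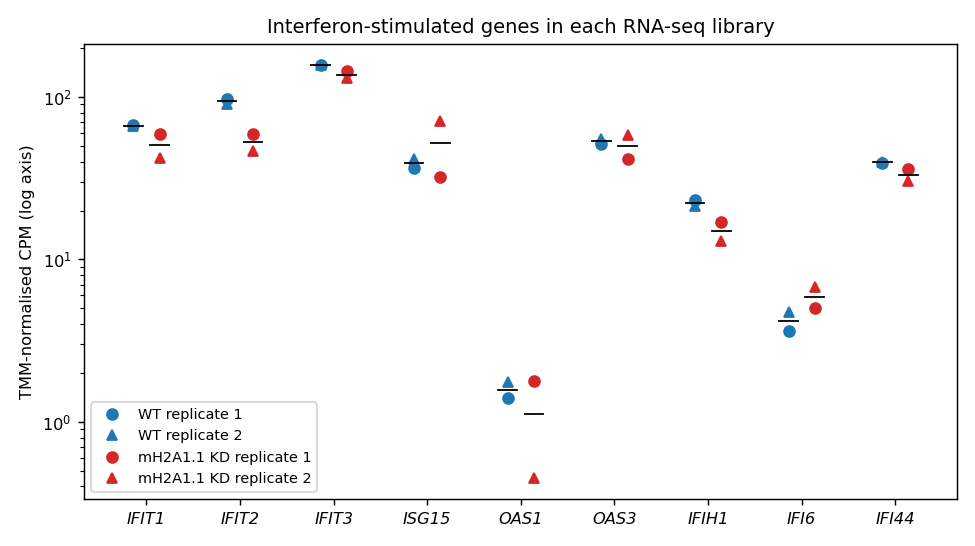
TMM-normalised CPM on a log axis (y) of the 9 members (x) in the 4 RNA-seq libraries, blue for WT and red for mH2A1.1 KD, circles for replicate 1 and triangles for replicate 2, with a bar at each group's mean. IFIT2 fell from 97.8 and 90.4 to 59.3 and 46.7 CPM (called by DESeq2, not by edgeR), while the KD libraries of ISG15 lie on either side of both WT libraries.

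ISG15 (chr1:1001138-1014540, plus strand) is a ubiquitin-like protein that is conjugated to other proteins. It gave 36.4 and 41.8 CPM in WT and 32.3 and 71.4 in mH2A1.1 KD. KD replicate 1 was the lowest of the 4 libraries and KD replicate 2 the highest, so the groups overlapped. The log2 fold change was 0.40 ± 0.438 (edgeR, 95% confidence interval -0.82 to 1.62, adjusted p = 0.621), 0.87 with KD replicate 2 alone and -0.26 with KD replicate 1 alone.

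OAS1 (chr12:112905856-112933219) and OAS3 (chr12:112938051-112976460), neighbours on the plus strand, encode synthetases of the oligoadenylate messenger that activates RNase L. OAS1 was barely detected, with 14 and 14 counts in WT and 10 and 1 in mH2A1.1 KD. Over both KD libraries its ratio to WT was 0.905, with an exact 95% interval of 0.406 to 1.87 that covers counting error only, so no difference was detectable at this depth. OAS3 gave 51.6 and 55.5 CPM in WT and 41.7 and 57.9 in mH2A1.1 KD, and the KD libraries lay on either side of the WT libraries. Its log2 fold change was -0.11 ± 0.232 (edgeR, adjusted p = 0.794).

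IFIH1 (chr2:162267074-162318684, minus strand), the sensor MDA5, gave 23.3 and 21.3 CPM in WT and 16.9 and 13.0 in mH2A1.1 KD. The KD values were thus the lower pair without overlap. A log2 fold change of -0.56 ± 0.218 missed the threshold by edgeR (95% confidence interval -1.17 to 0.05, adjusted p = 0.359) and DESeq2 (adjusted p = 0.192).

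IFI6 (chr1:27666064-27672212, minus strand), a small mitochondrial and endoplasmic reticulum protein, was the 1 member with both KD libraries above both WT libraries. It gave 3.61 and 4.76 CPM in WT and 5.03 and 6.74 in mH2A1.1 KD, from 15 to 38 counts per library. The log2 fold change was 0.45 ± 0.299 (edgeR, 95% confidence interval -0.38 to 1.28, adjusted p = 0.436). It shares 23.1% of its exon bases with LINC02574 on the same strand, so its count is uncertain. IFI44 (chr1:78649796-78664078, plus strand), a cytoplasmic protein whose transcript is induced by interferon, gave 39.4 and 39.8 CPM in WT and 35.9 and 30.5 in mH2A1.1 KD. The KD libraries were lower, by a log2 fold change of -0.25 ± 0.187 (edgeR, adjusted p = 0.476).

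Over the 9 members, both KD libraries lay below both WT libraries in 5 (IFIT1, IFIT2, IFIT3, IFIH1 and IFI44) and above them in 1 (IFI6), where 32.8% of all genes tested lay below and 30.1% above. The median log2 fold change was -0.20 for the members and 0.00 for all genes tested outside chromosomes 21, 22 and X. With KD replicate 1 alone the members' median was -0.16, and with KD replicate 2 alone -0.38. The 3 genes outside the pathway lists whose pattern over the 4 libraries was most like the members' mean were MTFR1L, MBOAT2 and STC1, with a root-mean-square distance of 0.0110 to 0.0143 on the log2 CPM scale. IFIT3 and IFI44 were the members closest to that mean, at 0.0359 and 0.0535, and ISG15 the farthest, at 0.511.

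Fold changes varied with the GC content of exons, over all genes and among the members. Genes with under 40% GC had a median log2 fold change of -0.50 and genes with over 55% one of 0.46. IFIH1 and IFI44 fall in the first class, IFIT1, IFIT2, IFIT3 and OAS1 in the class from 40% to 45%, with a median of -0.23, and ISG15 and IFI6, the members with positive values, in the last. The trend was steeper in KD replicate 2, with medians of -0.84 and 0.70 in the outer classes, than in KD replicate 1, with -0.26 and 0.19. An alternative fit took a smooth trend over exon length and GC content out of each library. Any difference between WT and mH2A1.1 KD that follows length or GC content is taken out with it. In that fit the log2 fold change of IFIT2 was -0.52 ± 0.0837 (edgeR, 95% confidence interval -0.76 to -0.28, adjusted p = 0.248), and both KD libraries remained below both WT libraries, at 58.2 and 58.9 corrected CPM against 86.5 and 81.9. IFIT1 moved to -0.07, IFIH1 to -0.11 and IFI6 to 0.05. The sign turned for IFIT3 (0.07), OAS1 (0.02) and IFI44 (0.28), and for ISG15 (-0.28), whose corrected values of 34.8 and 44.6 CPM in mH2A1.1 KD were below the 47.5 and 48.8 of WT. No member was called by the corrected edgeR fit. The members' median in it was -0.07, beside 0.06 for all genes tested outside chromosomes 21, 22 and X.

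With the same correction DESeq2 gave IFIT2 -0.53 ± 0.120 with an adjusted p of 0.000297, just under the fold needed for a call. It called 0 members, where it called 2.57% of 9262 genes lower and 3.14% higher. After the correction 4 members (IFIT1, IFIT2, ISG15 and IFIH1) had both KD libraries below both WT libraries and IFI44 had them above, beside 25.5% and 33.5% of all genes tested.

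**Figure D2:**
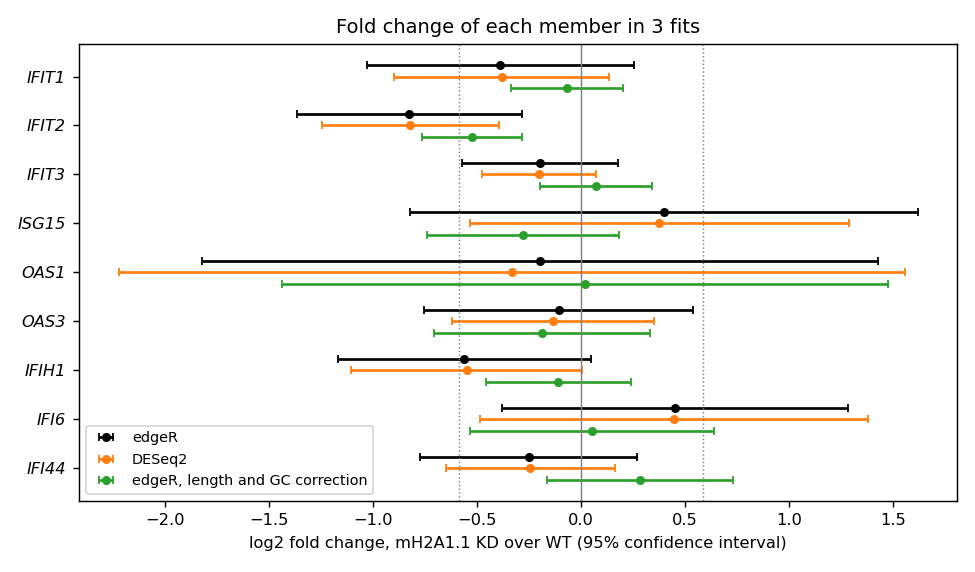
Log2 fold change of mH2A1.1 KD over WT (x) of each member (y) with its 95% confidence interval, by edgeR (black), DESeq2 (orange) and edgeR after correction for exon length and GC content (green), with dotted lines at a fold change of 1.5. The interval of IFIT2 stays below 0 in all 3 fits, and the 8 other members have intervals that include 0 in all 3.

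**Figure D3:**
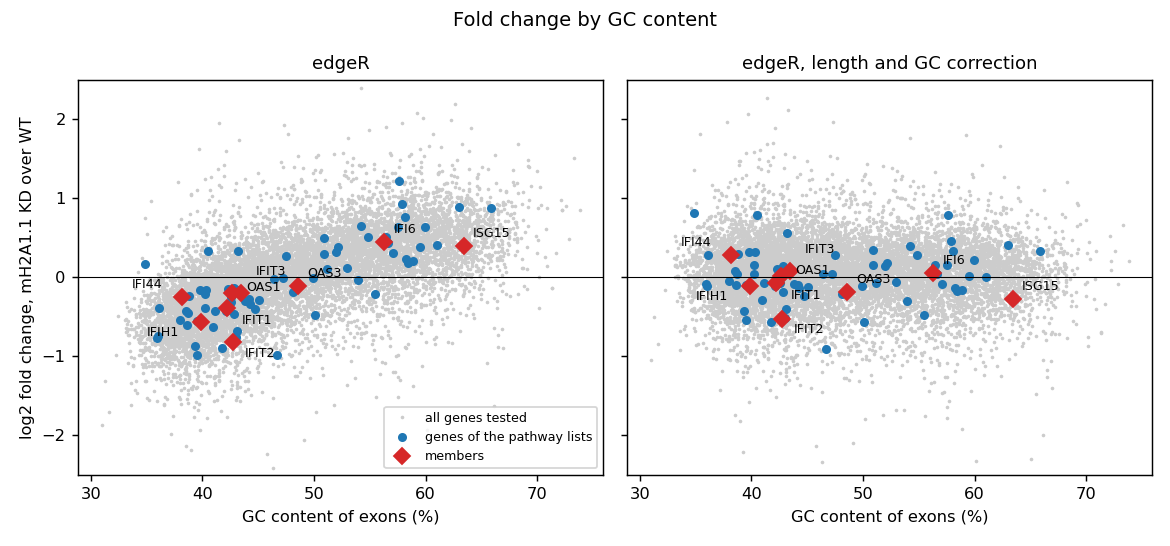
Log2 fold change of mH2A1.1 KD over WT (y, edgeR) against GC content of exons (x) for 10943 genes tested outside chromosomes 21, 22 and X (grey), pathway list genes (blue) and the members (red), without correction on the left and with it on the right. The axis ends at 2.5 in either direction, which leaves out 1 gene on the left and 0 on the right. Most members lie along the rise from left to right seen without correction. The correction takes that trend out by construction.

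Per kilobase of exon, the scale on which genes can be compared, ISG15 was the most abundant member in WT at 45.1 ± 4.39 CPM per kb (SD, n = 2), followed by IFIT3 at 31.1 ± 0.0967, IFIT2 at 21.7 ± 1.21, IFI44 at 19.4 ± 0.127 and IFIT1 at 14.4 ± 0.176. These 5 members were above the median of all genes tested, 6.63 CPM per kb, with IFIT3 at the 89.5th percentile and IFIT1 at the 73.2nd. IFI6 (4.47 ± 0.864), IFIH1 (4.26 ± 0.271) and OAS3 (2.97 ± 0.152) were below it, and OAS1 was last at 0.121 ± 0.0189. Neighbours in this order did not overlap between the WT libraries except IFI6 and IFIH1. In mH2A1.1 KD IFIT2 was at 12.2 ± 2.05 CPM per kb, below IFI44 at 16.3 ± 1.86, while ISG15 at 59.8 ± 31.9 and IFIT3 at 27.1 ± 1.77 stayed first and second by their means. These levels use the union of annotated exons, which for OAS1 and OAS3 is 13021 and 18045 bp long and lowers their values.

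The interferon genes on the list, which does not hold all interferons, were not detected. IFNB1, IFNA1, IFNL1, IFNL2, IFNL3 and IFNE had 0 counts in all 4 libraries, which allows up to 0.301 and 0.376 CPM in WT and 0.539 and 1.35 CPM in mH2A1.1 KD (3 counts in each library). Of their receptors, IFNGR1 gave 27.8 and 24.9 CPM in WT against 22.6 and 21.6 in mH2A1.1 KD (edgeR adjusted p = 0.461). IFNAR1, needed for the response to type I interferon, gave 92.4 and 92.6 CPM in WT and 86.5 in KD replicate 1. KD replicate 2 had no reads for IFNAR1, IFNAR2 and IL10RB, as for nearly all of chromosome 21, and no direction is given for them.

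Of 19 RNA and DNA sensors and their adaptors 18 were in the tables and 16 were tested. EdgeR called 0 of them, with 1 lower and 1 higher at an unadjusted p under 0.05, and DESeq2 called TLR3 and CGAS lower. TLR3, the endosomal sensor of double-stranded RNA, gave 15.3 and 13.8 CPM in WT and 8.80 and 5.39 in mH2A1.1 KD (DESeq2 log2 fold change -0.97, adjusted p = 0.099). CGAS, the cytosolic DNA sensor, gave 71.0 and 64.2 CPM against 45.8 and 26.5 (-0.89, adjusted p = 0.099). After the length and GC correction DESeq2 called neither, with values of -0.53 for TLR3 and -0.54 for CGAS. The most abundant of the list in WT were MAVS, TRIM25, ZNFX1 and EIF2AK2. MAVS gave 340 and 350 CPM in WT and 421 and 475 in mH2A1.1 KD (edgeR log2 fold change 0.38, adjusted p = 0.359). EIF2AK2, the kinase PKR that halts translation on binding double-stranded RNA and is itself an ISG, gave 195 and 183 CPM against 135 and 71.4 (-0.86, adjusted p = 0.359). TRIM25 and ZNFX1 had values of 0.27 and 0.31 and were not called. After the correction the edgeR values were 0.18 for MAVS, -0.43 for EIF2AK2, 0.28 for TRIM25 and 0.14 for ZNFX1.

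Of the 9 genes that carry the signal from receptor to ISG 7 were tested, and neither edgeR nor DESeq2 called any. At an unadjusted p under 0.05 edgeR gave 0 of the 7. JAK1 had a value of -0.18, TYK2 of 0.64 and IRF1 of 0.10. Without KD replicate 2 these were -0.039, 0.24 and -0.30, without KD replicate 1 -0.35, 0.95 (called by edgeR) and 0.41, and after the correction -0.21, 0.22 and -0.075. IRF9 was under the filter, with 3 to 8 counts per library.

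The list of other ISGs held 45 genes, of which 40 were in the tables and 39 were tested. EdgeR called 0, with 1 lower and 1 higher at an unadjusted p under 0.05. DESeq2 called XAF1 lower and HELZ2 higher. XAF1, a pro-apoptotic ISG, gave 25.9 and 22.2 CPM in WT and 11.3 and 13.0 in mH2A1.1 KD (DESeq2 log2 fold change -1.01, adjusted p = 0.011), and it remained called by DESeq2 after the length and GC correction. HELZ2, a helicase and transcriptional coactivator, gave 73.9 and 84.7 CPM against 108 and 183 (0.85, adjusted p = 0.094) and was no longer called after it. GBP2, an interferon-induced GTPase, was called higher by the corrected DESeq2 fit alone. The most abundant were LGALS3BP (edgeR log2 fold change 0.41), ZC3HAV1 (-0.34), SAMD9 (-0.74) and PARP14 (-0.42), none of which was called. In that order, their edgeR values after the correction were -0.00074, -0.14, -0.11 and -0.11. The median over the 36 tested genes outside chromosomes 21, 22 and X was -0.19, and 0.04 after the correction, where the median of all genes moved from 0.00 to 0.06.

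Among 8 partners of the member proteins 7 were tested, edgeR called 0 (2 lower at an unadjusted p under 0.05) and DESeq2 called ABCE1 and HERC5 lower. HERC5, the main ligase that attaches ISG15 to other proteins, gave 54.5 and 49.4 CPM in WT and 35.7 and 28.7 in mH2A1.1 KD (DESeq2 log2 fold change -0.68, adjusted p = 0.048). ABCE1, an inhibitor of RNase L and a ribosome recycling factor, gave 313 and 294 CPM against 216 and 140 (-0.77, adjusted p = 0.085). Neither was called after the length and GC correction. ADAR, which edits double-stranded RNA, had an edgeR value of -0.01, and PNPT1, which degrades RNA in mitochondria, of -0.56. These became -0.11 for ADAR and -0.097 for PNPT1 after the correction. Over the lists outside the members 63 genes had a DESeq2 adjusted p. Of these 5 were called lower and 1 higher, beside 5.72% and 4.36% of all genes. After the correction 1 was called lower and 1 higher, beside 2.57% and 3.14%. With KD replicate 2 left out, none of the DESeq2 calls held. Without that library the median edgeR log2 fold change of the list genes outside chromosomes 21, 22 and X was -0.09, beside 0.00 for all genes tested.

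**Figure D4:**
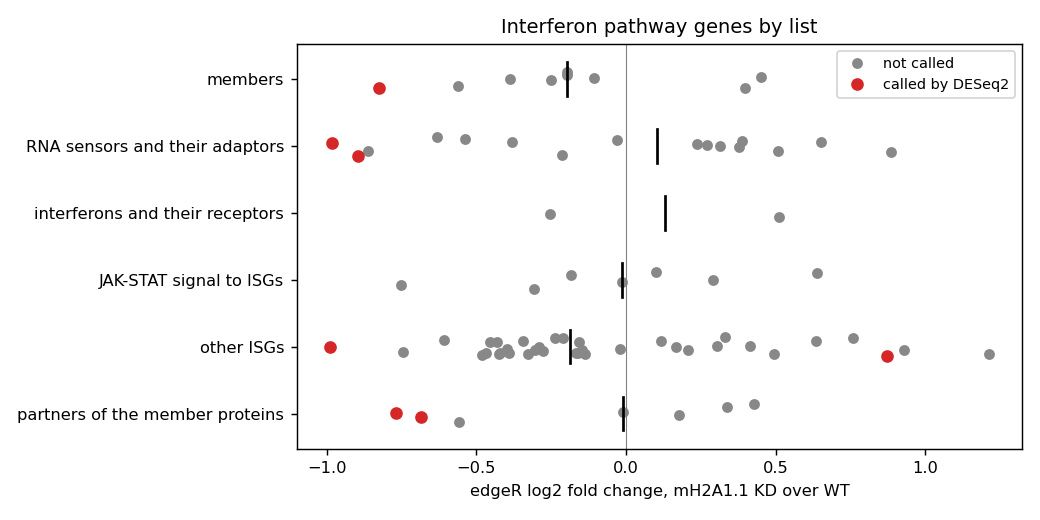
EdgeR log2 fold change of mH2A1.1 KD over WT (x) of each tested gene outside chromosomes 21, 22 and X, by list (y, with random vertical scatter), with black bars at medians and red points for genes called by DESeq2. The members' median, without the length and GC correction, is -0.20 and IFIT2 is their 1 red point. The other red points are TLR3, CGAS, XAF1, HELZ2, ABCE1 and HERC5.

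In WT cells the macro-histone peaks differed between members. Peaks were called by the authors in bins of 3000 bp, without replicates, and carry no height here. An mH2A1.1 peak lay within 500 bp of the GENCODE gene start of 4 of the 9 members (IFIT1, IFIT2, ISG15 and IFI6), beside 46.2% of all genes tested. A total mH2A1 peak lay there in 3 (IFIT1, ISG15 and IFI6), beside 18.2%. The study itself kept only mH2A1.1 peaks shared with the mH2A1 list. Such a common peak lay there in 3 members (IFIT1, ISG15 and IFI6), beside 25.7%. The common peak nearest to the GENCODE start of IFIT2 was 68.3 kb away. These shares describe small counts and no test was made.

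IFI6 was covered over its whole length by a wide mH2A1.1 peak (chr1:27603001-27675000) and a wider mH2A1 peak (chr1:27603001-27696000), which also hold its 3 ISRE matches. At IFIT1 a single bin, chr10:89391001-89394000, was a peak in both lists and held the gene start and both ISRE matches shown above. At IFIT2 the mH2A1.1 peak at chr10:89283001-89289000 held the gene start, and the mH2A1 peak began at its end (chr10:89289001-89292000), so that the pair touched without overlap. IFIT3, between them, had no peak at its start in either list, with the nearest 24.7 kb downstream inside the gene (chr10:89352001-89355000 for mH2A1.1).

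ISG15 depended on which start was used. Its GENCODE start, the most upstream of its annotated transcripts, lay in peaks of both lists (chr1:957001-1008000 for mH2A1.1 and chr1:978001-1008000 for mH2A1). Its RefSeq start at 1013497 lay 3.50 kb from the nearest peak of either list (chr1:1017001-1020000), and the ISRE matches shown above were outside peaks of both lists. With RefSeq starts 2 of 8 members, IFIT1 and IFI6, had a peak within 500 bp in each list, beside 34.3% of 27305 genes for mH2A1.1 and 20.1% for mH2A1.

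The remaining members lay outside peaks at their starts. OAS3 was 3.05 kb from an mH2A1.1 peak that covers the end of OAS1 (chr12:112932001-112935000), and 39.1% of its body was covered by mH2A1 peaks against 7.82% by mH2A1.1 peaks. OAS1 was 9.86 kb from the nearest mH2A1.1 peak. IFI44 was 28.8 kb and IFIH1 202 kb from the nearest mH2A1.1 peak, and neither gene body held a peak of either list. IFIH1 had no peak within 100 kb of its start. IFIT2, the member called by DESeq2, had an mH2A1.1 peak at its GENCODE start, as did IFIT1, ISG15 and IFI6, which were not called. For IFIT2 that start is the most upstream of 8 annotated, and the peak did not reach all of the 8. IFIT2 had no RefSeq entry, so a peak at its RefSeq start could not be looked for.

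**Figure D5:**
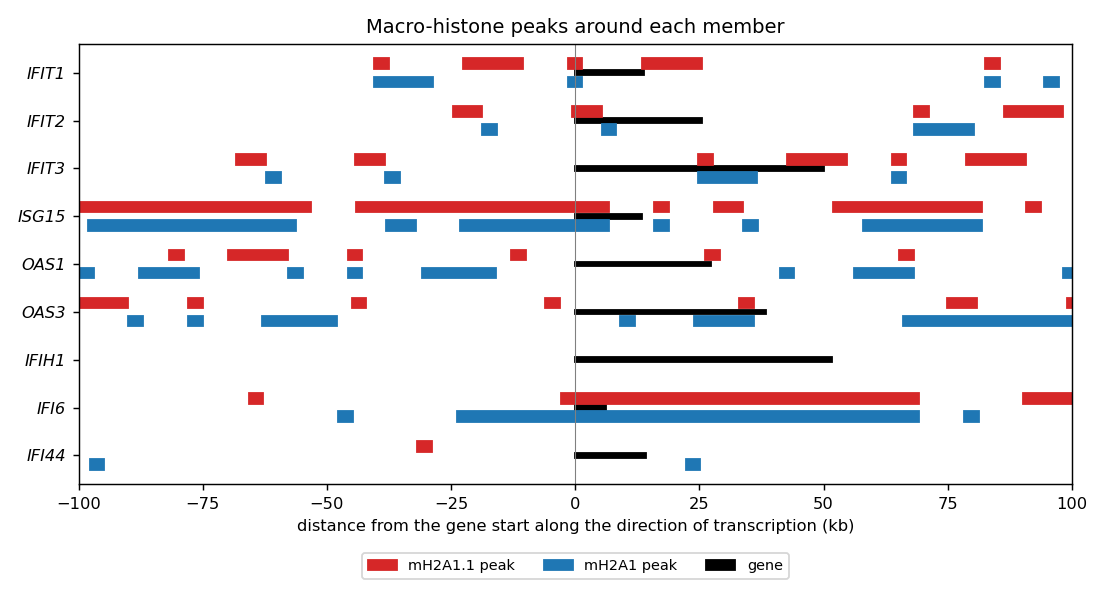
Peaks of mH2A1.1 (red) and total mH2A1 (blue) in WT cells within 100 kb of the gene start of each member (y), by distance along the direction of transcription in kb (x), with the gene in black. IFIT1, IFIT2, ISG15 and IFI6 have a red block over distance 0, and IFIH1 has no block at all.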

How the data were processed

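The 9 members, the pathway lists and the tests were chosen with earlier results of these data known. The authors mapped RNA-seq reads with STAR 2.5.1 to GRCh38, removed duplicates and deposited whole-number counts per Ensembl gene from HTSeq with default settings. The kit marks strand and the strand setting beyond the default is not given in the sources used here. VIM had 10000 to 22006 counts per library and its antisense neighbour VIM-AS1 20 to 124, so reads were not assigned to the opposite strand, but whether strand was used at all was not settled. They called ChIP-seq peaks with normR, and the deposited peak lists give positions only. Common peaks are the 11849 mH2A1.1 peaks that overlap an mH2A1 peak, and they were counted as an alternative. The annotation release is not given in the sources used here, so symbols, exons and starts came from GENCODE release 44, which held 23061 of 23167 identifiers. IRF7, IFNGR2, IFI27, PSMB8, PSMB9, TAP1 and LY6E were not analysed here, nor were the ChIP input and the promoter capture libraries.

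Counts were tested with edgeR 4.0.16 (filterByExpr, TMM, quasi-likelihood) and, as an alternative, DESeq2 1.42.0, each with Benjamini-Hochberg adjustment over all genes tested, in R 4.3.3. Calls required more than a 1.5-fold change and an adjusted p below 0.1. With 2 libraries a group no exact test over samples could reach 0.05. Fold changes are mH2A1.1 KD over WT. Length and GC correction used a lowess trend (span 0.3) per library, entered as offsets. Depth was 2309549 to 9794674 counts, and intervals from counts and floors of 3 counts cover counting error only. Named genes were the members, MACROH2A1, the 4 highest in WT CPM of each list, all list genes called by either tool, and the 3 genes most like the members' mean. A gene that this rule names is not reported here. Genes named beyond this rule (GBP2, IRF9, the genes on chromosomes 21 and 22) were picked with their values in view. Alternatives were another scaling, no filter, a replicate block, equal library totals by thinning, leaving out each library or chromosomes 21, 22 and X, other peak windows and starts (RefSeq starts were added after seeing the data) and other ISRE spacings.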

Additional observations from a re-analysis of the deposited data

How the results depend on the processing

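EdgeR called 0 of all genes, 0 members and 0 pathway list genes with the other scaling, without a filter, with the replicate block (0 calls), without chromosomes 21, 22 and X, with library totals thinned to the smallest (which left OAS1 under the filter) and with the length and GC correction. The shared replicate numbers pair nothing in the labels, and same-numbered libraries gave a correlation of 0.258 between their deviations. DESeq2 called 950 genes, 1 member (IFIT2) and 6 list genes, and with the correction 529 genes, 0 members and 2 list genes. Leaving out 1 library moved edgeR's calls between 0 and 5574 genes, 0 and 4 members and 0 and 40 list genes. DESeq2's moved between 4 and 4372 genes, 0 and 3 members and 0 and 32 list genes. The highest counts came without KD replicate 1, over all genes as well as over members and list genes. With all 4 libraries edgeR tested 11723 genes, 9 members and 74 list genes. The members were then IFIT1, IFIT2 and IFIH1, lower, and ISG15, higher, by edgeR (DESeq2 called the same without IFIH1). Without KD replicate 2 edgeR called 966 genes and DESeq2 403, and IFIT2 was the 1 member called by either. The cause was not tested.

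The correction turned the sign, by edgeR and then by DESeq2, of IFIT3 (0.074, 0.047), ISG15 (-0.28, -0.30), IFI44 (0.28, 0.24), IFNGR1 (0.052, 0.0096), IRF1 (-0.075, -0.096) and LGALS3BP (-0.00074, -0.0090), and of OAS1 by edgeR (0.019). Over the fits without 1 library, log2 fold changes ranged from -0.26 to 0.87 for ISG15, -1.76 to 0.21 for OAS1, -0.35 to 0.11 for OAS3, -0.30 to 0.41 for IRF1 and -0.073 to 0.044 for ADAR. IFIT1, IFIT2, IFIH1 and IFI6 kept their sign in every alternative run, but without 1 library IFIT1 ranged from -0.67 to -0.16, IFIT2 from -1.02 to -0.66, IFIH1 from -0.79 to -0.40 and IFI6 from 0.28 to 0.69. With RefSeq starts 2 members had an mH2A1.1 peak in place of 4, and counting any transcript start gave 5 with an mH2A1 peak in place of 3. With common peaks only, 3 members had an mH2A1.1 peak, and IFIT2 was the one lost. Other windows and ISRE spacings moved those counts by at most 1. KD replicate 2, with 2309549 counts, and OAS1, with 1 to 14 counts a library, limit what can be seen. The study also lists KD replicate 2 with the lowest share of uniquely mapped reads among the RNA-seq libraries.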
